A study of Mus musculus with 6 samples.

Results

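Malat1 and Neat1 are 2 long noncoding RNAs that are found mostly in the nucleus and are made from neighbouring genes on mouse chromosome 19. Malat1 collects in nuclear speckles, which store splicing factors, and its 3′ end is made by RNase P instead of by polyadenylation. Neat1 is the scaffold of paraspeckles. It comes in a short polyadenylated form and a long form that share a 5′ end, and the long form is the one that builds the paraspeckle. The 2 genes were taken out of the 37310 genes of GENCODE vM1 by name and place. In that annotation, on build NCBIM37, Malat1 (ENSMUSG00000092341) covers chr19:5795690-5802671 and Neat1 (ENSMUSG00000092274) covers chr19:5824708-5845478, both on the minus strand. Neat1 does not occur among the deposited names of the ES and MEF libraries, so its read pairs were found by position in every library.

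The libraries were made by MARIO, in which RNAs crosslinked to the same protein are joined through a biotinylated RNA linker and sequenced as a pair, the piece 5′ of the linker as RNA1 and the piece 3′ of it as RNA2. ES-1 and ES-2 are 2 assays on E14 embryonic stem cells of strain 129/Ola, crosslinked with ultraviolet light of 254 nm, cut with RNase I to about 1000 nt by the labels (the methods give a wider, longer range for ES-1) and depleted of ribosomal RNA by duplex-specific nuclease in ES-1 and by GeneRead in ES-2. ES indirect used the same cells crosslinked with formaldehyde and EGS, which also hold proteins to each other, then sonication and duplex-specific nuclease, and MEF used C57Bl/6 embryonic fibroblasts crosslinked by ultraviolet light, cut to about 300 nt and depleted with GeneRead. Brain 1 and brain 2 are technical replicates of the whole brain of 1 adult female C57BL/6J mouse, given 3 irradiations of 400 mJ/cm2. Cell type, crosslinking, fragment size and depletion change together between most groups, so their parts in a difference cannot be told apart, and only ES has 2 independent libraries.

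The libraries held between 373978 (MEF) and 2310134 (ES-1) distinct read pairs, that is, lines counted once per pair of fragment coordinates. Markers of ES cells were detected for 10 of 10 genes in the 3 ES libraries, and markers of fibroblasts for 9 of 10 in MEF, with Tagln at 0. MEF also had ends in 9 of 10 ES and 9 of 10 brain markers, and the ES libraries in 5 to 8 fibroblast and 8 to 9 brain markers, so detection alone does not separate them. Summed levels per 1000000 ends in genes did: in MEF 2873 for fibroblast, 154 for ES and 424 for brain markers, and in the ES libraries 853 to 2027 for ES, 405 to 582 for fibroblast and 61.3 to 278 for brain markers. Brain markers were detected for 10 of 10 in both brain libraries, where 8 of 10 ES markers were at 0. Of the 1004 distinct Malat1 read pairs of brain 1, 823 (82.0%) had the same coordinates as one of brain 2, and 12 of its 14 Neat1 read pairs did. ES-1 and ES-2 shared no Malat1 or Neat1 read pair. The brain libraries are therefore treated as 1 sample sequenced again.

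The windows of the 2 RNAs that held most ligated ends are shown first, to give the sequence at the places joined most often. They need not lie in the bins that lead the profiles of all ends below, and in ES indirect and brain those of Malat1 do not. Each line is a 30-nt window of the RNA, read 5′ to 3′ from the genome, and capitals mark the base with most ligated fragment ends in the window, or all bases that tie for most. A ligated end is the 3′ end of an RNA1 piece or the 5′ end of an RNA2 piece. Windows were ranked by ligated ends of sense fragments of at least 20 nt, leaving out read pairs with both fragments at the length limit of the reads.
Malat1, ES-1 and ES-2, nt 1401 to 1430, chr19:5801242-5801271: agcagcagtgcatggtgaaGAtagcccagg
Malat1, ES-1 and ES-2, nt 1517 to 1546, chr19:5801126-5801155: agcgagagcgagttggtgatGaagctagct
Malat1, ES indirect, nt 5735 to 5764, chr19:5796908-5796937: atgctggagcagctAgcatgtgatgtaatg
Malat1, brain, nt 5348 to 5377, chr19:5797295-5797324: aactggcaagtggaaatgttttgaacAgtt
Neat1, ES-1 and ES-2, nt 2060 to 2089, chr19:5843390-5843419: gtgggagaaagcagggcTCagCttGgcatT
Neat1, ES indirect, nt 1471 to 1500, chr19:5843979-5844008: tgcgTAaggtgtaggacactttAAcGtctG

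The first Malat1 window of ES-1 and ES-2 held 26 of 903 ligated ends (2.88%), where an even spread would put 3.88 in each window. The second of these windows held 19. The first window of ES indirect held 55 of 1898, against 8.16 for an even spread, and that of brain held 41 of 762 (5.38%), 14 of them at 1 base. On Neat1 the leading window held 5 of 71 ends in ES-1 and ES-2 and 6 of 116 in ES indirect, where a second window, from nt 2006 to 2035, also held 6. Each capital of the 2 Neat1 windows stands for 1 end, so they have no leading base.

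Malat1 was recovered more often than Neat1 in all 6 libraries. Malat1 gave 2847 distinct read pairs in ES indirect, 848 in ES-1, 208 in ES-2, 23 in MEF, 1004 in brain 1 and 1042 in brain 2. Neat1 gave 197, 52, 35, 3, 14 and 19 in the same order. The Malat1 counts of ES-1 and ES-2 rest on 1520 and 220 deposited lines, and that of ES indirect on 7169, so repeated lines are common in ES-1 and ES indirect and rare in ES-2.

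To compare libraries, counts were set against the distinct read pairs with no ribosomal end. Malat1 took 0.108% of these in ES-1 (95% Wilson interval 0.0984 to 0.119) and 0.0468% in ES-2 (0.0388 to 0.0565), a mean of 0.0775% ± 0.0433 (SD, n = 2). The 2 ES assays thus differed 2.31-fold. The share was 0.321% in ES indirect (0.308 to 0.334), 0.202% in brain 1 (0.190 to 0.215), 0.206% in brain 2 (0.194 to 0.219) and 0.00847% in MEF (0.00529 to 0.0136). In order, ES indirect was highest, then brain, ES-1, ES-2 and MEF. The intervals of brain 1 and brain 2 overlapped, which says little since they share most read pairs. The other neighbours in this order had intervals that did not overlap. Ribosomal ends were not named alike in all libraries. ES and MEF kept deposited names, while brain ends were named from fragments placed by sequence. A ribosomal fragment without a placement would stay in the brain denominator. Read pairs with a ribosomal end made up 18.1% in brain 1 and 17.9% in brain 2, against 46.3% (MEF) to 82.4% (ES-1) elsewhere. The part of naming in the place of brain, for Malat1 and for Neat1, was not tested. The lead of ES indirect over brain depends on the denominator. Over all distinct read pairs, ribosomal ones included, Malat1 took 0.167% (interval 0.157 to 0.177) in brain 1, 0.171% (interval 0.161 to 0.182) in brain 2 and 0.172% (interval 0.166 to 0.178) in ES indirect. These intervals overlap. The share was 0.0367% in ES-1, 0.0168% in ES-2 and 0.00615% in MEF. These intervals cover counting error only, and no test between groups was run, with 1 sample in each group but ES. In bulk samples fewer cells of a type and less RNA per cell cannot be told apart.

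Neat1 took 0.00663% in ES-1 (0.00456 to 0.00965) and 0.00902% in ES-2 (0.00590 to 0.0138), a mean of 0.00783% ± 0.00169 (SD, n = 2). It took 0.0222% in ES indirect (0.0190 to 0.0259), 0.00284% in brain 1, 0.00380% in brain 2 and 0.000498% in MEF, which is 1 read pair. In the order ES indirect, ES-2, ES-1, brain 2, brain 1 and MEF, the intervals of neighbours overlapped from ES-2 to MEF, so these steps do not exceed counting error. With this denominator brain stood above ES-1 and ES-2 for Malat1 and below them for Neat1. Over all distinct read pairs the latter did not hold, since Neat1 took 0.00232% in brain 1, 0.00312% in brain 2, 0.00225% in ES-1 and 0.00282% in ES-2, with overlapping intervals.

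The MEF values depend on the fragments. When read pairs with a fragment under 20 nt or with a piece of the linker were left out, the Malat1 share of MEF rose from 0.00847% to 0.0413%, and that of Neat1 from 0.000498% to 0.00459%. The Neat1 value is the same 1 read pair both times, over fewer read pairs in the second. Computed the same way, the Malat1 share of MEF was still under the ES mean of 0.0856%. It rests on no more than the 17 read pairs counted before the filter, and no interval was computed for it. With these fragments left out MEF is therefore not ranked against ES-2, which had 0.0468% with all fragments. The Neat1 shares were 0.00291% in brain 1 and 0.00390% in brain 2, but with 1 read pair MEF cannot be ranked for Neat1. Of the 29 Malat1 ends of MEF only 20 lay on the strand of the gene, against 99.1% in ES-1 and 98.3% in brain 1, so MEF values are given below only as counts and levels beside the other libraries.

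**Figure D1:**
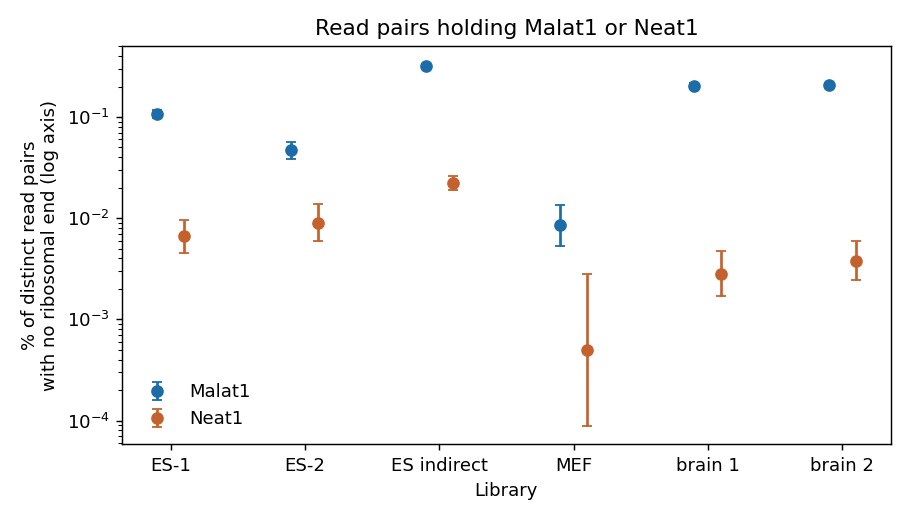
Percent of distinct read pairs with no ribosomal end that hold Malat1 (blue) or Neat1 (orange), by library, on a log axis; points are single libraries and bars are 95% Wilson intervals, which cover counting error only. Malat1 lies above Neat1 in each library, from 0.00847% in MEF to 0.321% in ES indirect. MEF is lowest for both with all fragments counted, but its Neat1 value is 1 read pair and cannot be ranked. Ribosomal ends were named in a different way in brain.

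Levels of the 2 RNAs were also compared per length, as ends per 1000000 ends of non-ribosomal read pairs and per kilobase of gene. Malat1 stood at 382 in ES indirect, 90.9 in ES-1, 34.8 in ES-2, 8.21 in MEF, 277 in brain 1 and 283 in brain 2. On this scale Neat1 stood at 9.005 in ES indirect, 1.77 in ES-1, 2.28 in ES-2, 0.240 in MEF, 1.32 in brain 1 and 1.73 in brain 2. The level per length of Malat1 was the higher one in every library. The Neat1 value divides by the 20771 nt of the long form, most of which gave few ends.

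Positions along Malat1 were read in bins of 250 nt from the 5′ end. In ES-1 the bin from nt 1251 to 1500 held 119 of 925 ends (12.9%, 10.9 to 15.2), and in ES-2 the same bin led with 32 of 212 (15.1%, 10.9 to 20.5). An even spread over the 28 bins would put 3.57% in each. The next bin, from nt 1501 to 1750, was second in both with 6.70% and 9.43%, followed by the bin from nt 2751 to 3000 with 5.41% and 7.55%. In ES-2 the bin from nt 5751 to 6000 held as many ends, 16, as the latter. ES indirect also led with nt 1251 to 1500, at 356 of 4374 ends (8.14%, 7.36 to 8.99), followed by nt 1501 to 1750 at 7.59%. Next came nt 5751 to 6000 with 6.70%. In its read pairs that leave Malat1 another bin led, nt 6251 to 6500 with 88 of 1320 ends (6.67%, 5.44 to 8.14), whereas in ES-1 and ES-2 nt 1251 to 1500 led in these too, with 10.5% and 14.7%.

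In brain the weight lay towards the 3′ end. The leading bin was nt 4501 to 4750, with 206 of 1918 ends in brain 1 (10.7%, 9.43 to 12.2) and 210 of 1986 in brain 2 (10.6%). The bins from nt 5251 to 5500 and from nt 6001 to 6250 followed, in either order. The bin that led in ES held 2.19% of the brain 1 ends. Ends from nt 3501 on, which is 49.9% of the length, made up 71.8% of brain 1 (69.7 to 73.8), 72.9% of brain 2, 49.3% of ES indirect (47.9 to 50.8), 43.4% of ES-1 (40.2 to 46.6) and 41.98% of ES-2 (35.5 to 48.7). These totals mix different kinds of read pair, since over 90% of brain pairs lie within Malat1 and most of ES-1 and ES-2 leave it. In pairs that leave Malat1 the 3′ share was 55.6% in brain 1 (45.3 to 65.4), 59.2% in brain 2 (49.3 to 68.4), 50.1% in ES indirect (47.4 to 52.8), 46.2% in ES-1 (42.7 to 49.7) and 42.6% in ES-2 (36.1 to 49.5), and the interval of brain 1 overlaps those of the ES libraries. The bin that led in brain held 3 of 90 such ends in brain 1 and 4 of 98 in brain 2. In pairs within Malat1 the 3′ share was 72.6% in brain 1 (70.5 to 74.6), 49.02% in ES indirect (47.2 to 50.8) and 29.2% in ES-1 (22.6 to 36.8, 45 of 154 ends). ES-2 had 2 of 8 such ends.

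Across the 28 bins the 2 ES profiles had a Pearson r of 0.90 and a Spearman rho of 0.82. Against ES indirect the Pearson r was 0.75 for ES-1 and 0.76 for ES-2, and against brain 1 it was 0.03 for ES-1 and 0.27 for ES indirect. Over pairs that leave Malat1 alone, r was 0.86 between the 2 ES assays. ES indirect then had r of 0.55 with ES-1, 0.45 with ES-2, 0.35 with brain 1 and 0.51 with brain 2. Bins lie on 1 RNA and come from 1 library each, so these values are a description. The last bin, nt 6751 to 6982, held 0 ends in ES-1, ES-2, MEF and both brain libraries and 1 of 4374 in ES indirect. A count of 0 in 1918 ends allows a share of up to 0.156% in brain 1.

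**Figure D2:**
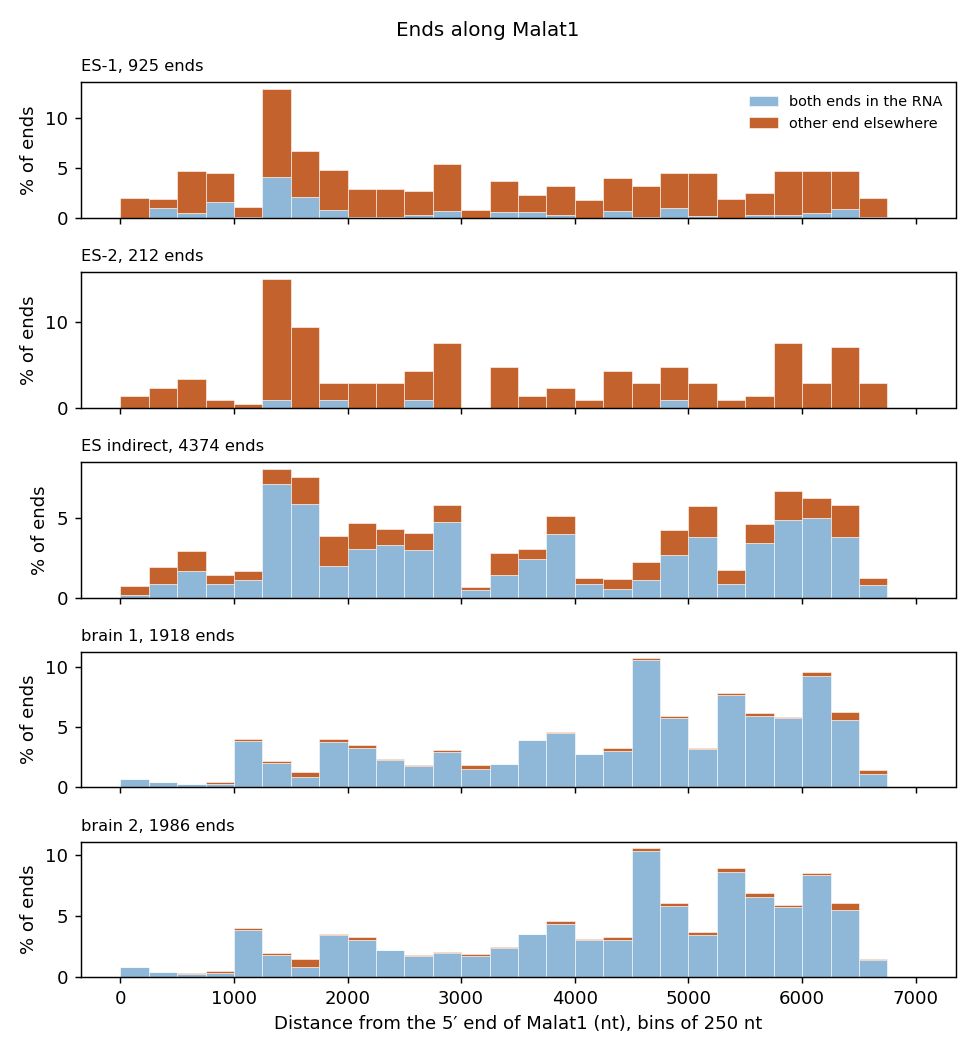
Percent of the Malat1 ends of a library in each bin of 250 nt, from the 5′ end to the 3′ end, for all libraries but MEF, split into ends of read pairs with both ends in Malat1 (blue) and with the other end elsewhere (orange). ES-1, ES-2 and ES indirect peak at nt 1251 to 1500, and both brain libraries peak at nt 4501 to 4750.

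On Neat1 the ends gathered in the first 3172 nt, the part covered by the short transcript model. This part is 15.3% of the gene. It held 41 of 55 ends in ES-1 (74.5%, 61.7 to 84.2), 25 of 36 in ES-2 (69.4%, 53.1 to 82.0), 177 of 306 in ES indirect (57.8%, 52.2 to 63.2), 17 of 27 in brain 1 (63.0%) and 24 of 36 in brain 2 (66.7%). ES indirect had the lowest share, but the intervals of all these libraries overlap. The short form and the 5′ part of the long form have the same sequence, so an end there cannot be given to one of them, while the ends beyond it, 129 in ES indirect, 14 in ES-1 and 11 in ES-2, lie outside the short model. Read pairs that leave Neat1 were spread alike, with 37 of 49 in the first part in ES-1, 23 of 34 in ES-2 and 54 of 88 in ES indirect.

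Single Neat1 bins rest on few ends. In ES-1 the first 250 nt led with 9 of 55 ends (16.4%), and in ES-2 nt 1501 to 1750 led with 5 of 36 (13.9%). The latter bin also led in ES indirect, with 26 of 306 (8.50%). With ES-1 and ES-2 pooled, 3 bins tied, since the first 250 nt held 9 and 1 ends, nt 1501 to 1750 held 5 and 5, and nt 2001 to 2250 held 6 and 4. No single Neat1 bin therefore led in the pooled ES assays.

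**Figure D3:**
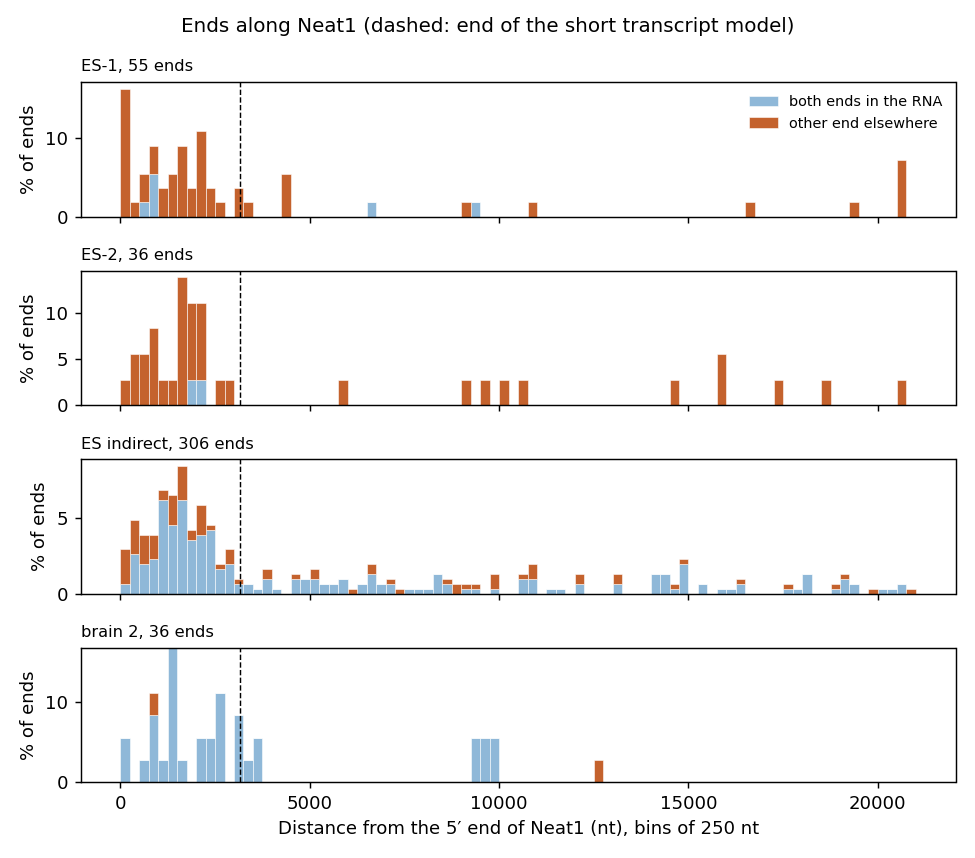
Percent of the Neat1 ends of a library in each bin of 250 nt, from the 5′ end to the 3′ end, for brain 2 and the 3 ES libraries, with colours as in the Malat1 profile and a dashed line at nt 3172, where the short transcript model ends. Between 57.8% and 74.5% of the ends of these libraries lie left of the line.

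Read pairs with both ends in Malat1 made up 77 of 848 in ES-1 (9.08%, 7.33 to 11.2), 4 of 208 in ES-2 (1.92%, 0.750 to 4.84), 1527 of 2847 in ES indirect (53.6%, 51.8 to 55.5), 914 of 1004 in brain 1 (91.0%, 89.1 to 92.7) and 944 of 1042 in brain 2 (90.6%). The ES mean was 5.50% ± 5.06 (SD, n = 2), so ES indirect and brain lay above ES by far more than the spread between the ES assays. With every deposited line counted the shares were 13.8% for the ES mean, 77.4% for ES indirect, 92.2% for brain 1 and 93.4% for brain 2. Neat1 followed the same order, with 3 of 52 in ES-1, 1 of 35 in ES-2, 109 of 197 in ES indirect (55.3%, 48.4 to 62.1), 13 of 14 in brain 1 and 17 of 19 in brain 2.

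The share of long fragments was also highest in brain, then in ES indirect, ES-1 and ES-2. Read pairs with both fragments at the length limit of the reads were 72.7% of brain 1, 73.1% of brain 2, 35.7% of ES indirect, 8.35% of ES-1 and 2.01% of ES-2. The limits were 80 and 88 nt in brain and 90 and 100 nt in these ES libraries. MEF could not be set in this order. Its commonest pair with a long RNA1 fragment had 81 and 17 nt, so no length limit was found. It had 6 of 23 Malat1 pairs within the RNA (12.5 to 46.5%), of which 1 had both ends on the strand of the gene. Flow cells of 1 library differed too. In ES indirect the within-Malat1 share was 64.7% on the flow cell with 48.0% such pairs and 33.7% on the flow cell with 18.4%, and in ES-1 it was 15.3% and 3.20% on flow cells with 10.2% and 6.86%. In ES-2 the direction was the other one, with 4 of 130 on the flow cell with 1.94% and 0 of 78 on that with 2.101%. Of the within-Malat1 pairs themselves, both fragments were at the length limit in 72 of 77 in ES-1 and 2 of 4 in ES-2. They were so in 1159 of 1527 in ES indirect, 628 of 914 in brain 1 and 652 of 944 in brain 2. The reads of these pairs ended at the limit, so no ligated end can be taken from them. The part of fragment length in the within-RNA share was not tested.

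Other long RNAs gave the following background. Among protein-coding and lincRNA names with at least 100 read pairs, counting only read pairs with both fragments matched to or placed on the genome by sequence, the within share of Malat1 was 9.96% in ES-1 (median 3.54%, with 26 of 243 RNAs at or above Malat1, itself included), 57.9% in ES indirect (median 52.4%, 382 of 1370) and 93.9% in brain 1 (median 96.2%, 546 of 624). Malat1 thus stood above the median in ES-1 and ES indirect and below it in brain 1.

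Most within-Malat1 read pairs kept the order of the transcript. RNA1 lay 5′ of RNA2 in 72 of 77 in ES-1, 1268 of 1527 in ES indirect, 565 of 914 in brain 1 and 591 of 944 in brain 2. This order with a span of at most 2000 nt was found in 70 of the 77 in ES-1, 1250 of 1527 in ES indirect and 565 of 914 in brain 1. For RNA structure the study filtered pairs within a gene by linker, order and a distance of 2000 bp, to limit intact RNA fragments. That filter was not applied here. The pairs in transcript order, and so the within-RNA shares above, may hold intact fragments, which was not tested. In 53 of the 77 the fragments overlapped on the RNA, as they did in 391 of 1527 in ES indirect and in 13 of 914 in brain 1. The median span of the pairs in transcript order was 204 nt in brain 1, 202 nt in ES indirect and 144.5 nt in ES-1. Only 2 read pairs of ES-1, 37 of ES indirect and 0 of brain 1 spanned over 2000 nt.

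The other read pairs ran in reversed order, with RNA2 5′ of RNA1. There were 259 in ES indirect (16.96%, 15.2 to 18.9), 5 in ES-1, 2 in ES-2, 349 in brain 1 (38.2%, 35.1 to 41.4) and 353 in brain 2 (37.4%). They spanned a median of 497 nt in ES indirect, with a range of 84 to 4359 nt, and of 184 nt in brain 1. In brain 1, 102 of the 349 lay end to end on the RNA, within 2 nt, against 29 of 259 in ES indirect. Over long RNAs with both fragments placed by sequence, 14.6% of reversed pairs did so in ES indirect and 1.77% in brain 1, but the Malat1 count of brain 1 also holds pairs with an unplaced fragment, so these values are not of 1 kind. Over long RNAs with at least 50 within-RNA read pairs placed by sequence, the reversed share of Malat1 was 16.7% in ES indirect (median 15.9%, 550 of 1260 RNAs at or above it, itself included) and 25.3% in brain 1 (median 18.8%, 147 of 1406). The brain value is lower than the 38.2% above because it counts only pairs on 1 strand with both fragments placed by sequence. On Neat1, 14 of 109 within-RNA pairs of ES indirect were reversed, the longest of them spanning 3838 nt.

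**Figure D4:**
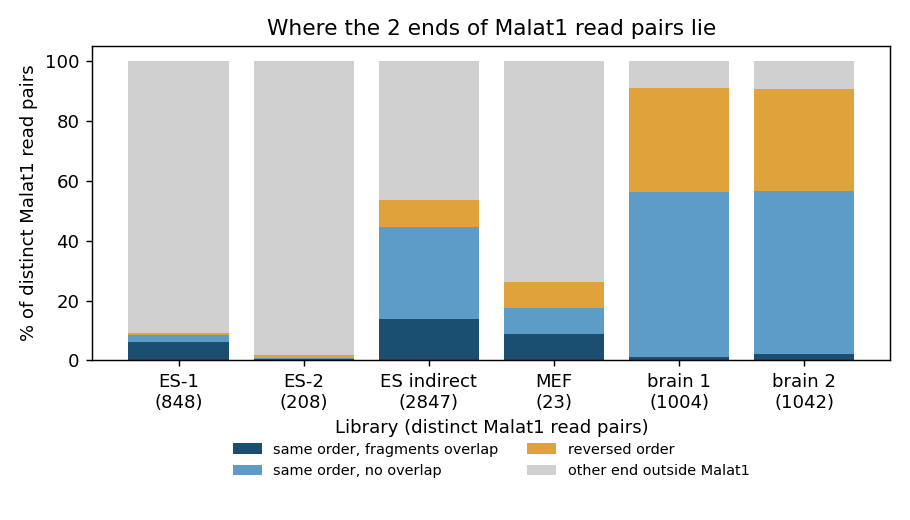
Percent of the distinct Malat1 read pairs of a library whose ends both lie in Malat1 in the order of the transcript with overlapping fragments (dark blue) or without overlap (light blue), in reversed order (orange), or whose other end lies outside Malat1 (grey); the number of read pairs is under each bar. Pairs within Malat1 are 1.92% of ES-2 and 91.0% of brain 1.

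No read pair joined Malat1 to Neat1 in any library, although their genes are neighbours. The product of the counts of read pairs that leave each RNA, over all read pairs not within a single RNA, predicts 0.0168 in ES-1, 0.00566 in ES-2 and 0.0894 in ES indirect. Ends of each side joined at random would predict fewer, as for U1 below. The count of 0 allows up to 0.389% of the 771 Malat1 read pairs with another RNA in ES-1, 1.47% of the 204 in ES-2 and 0.227% of the 1320 in ES indirect. Seen from Neat1 the limits are 6.12% of 49 read pairs in ES-1, 8.82% of 34 in ES-2 and 3.41% of 88 in ES indirect, so a contact that took a smaller part of the Neat1 read pairs was not detectable at this depth.

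Ribosomal RNA was the most frequent partner type of Malat1 in the 3 ES libraries. Ribosomal ends were 408 of 771 in ES-1 (52.9%, 49.4 to 56.4) and 99 of 204 in ES-2 (48.5%, 41.8 to 55.4). In the library they were 58.4% and 54.8% of all ends, leaving out read pairs within 1 annotated, non-ribosomal RNA. Read pairs with both ends ribosomal or both unannotated stayed in this library value. Ribosomal ends were 549 of 1320 in ES indirect (41.6%, 39.0 to 44.3), against 57.1% of all such ends. In brain they were 7 of 90 in brain 1 and 12 of 98 in brain 2, against 33.8% and 33.5%, and unannotated ends were the most frequent, with 48 of 90 (53.3%) and 46 of 98 (46.9%), against 50.2% and 50.8%. In brain the unannotated ends hold fragments that could not be placed by sequence as well as ends outside genes. They are therefore not read as a partner type. Malat1 had a smaller ribosomal share than the library in each of these 5 libraries, and in ES-2 the library value lay within the interval. The 2 values are not of 1 kind, since only the library value holds read pairs with both ends ribosomal. A smaller share is therefore not read as a trait of Malat1. The same limit holds for the library values of the other partner types below. With short and linker fragments left out the shares were 55.4% against 60.8% in ES-1, 60.6% against 62.3% in ES-2 and 48.3% against 63.5% in ES indirect. With sequence matches they were 56.8% against 61.9%, 62.7% against 64.1% and 48.9% against 63.2%. Malat1 was the lower one each time, and the library value lay within the interval in ES-2 under both filters. Neat1 was alike, with 25 of 49 in ES-1, 14 of 34 in ES-2 and 38 of 88 in ES indirect.

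Small nucleolar RNAs, which guide the modification of ribosomal RNA, were the second group in ES-1, with 158 of 771 (20.5%, 17.8 to 23.5) for Malat1 against 20.5% of all ends. They were 23 of 204 in ES-2 (11.3%, against 9.72%) and 6 of 1320 in ES indirect (0.455%, 0.208 to 0.988, against 1.47%). The library value lay within the interval in ES-1 and ES-2 and above it in ES indirect. Neat1 had 14 of 49 in ES-1 and 5 of 34 in ES-2.

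Protein-coding genes were 89 of 771 partners in ES-1 (11.5%, 9.48 to 13.99, against 8.90% of all ends), 39 of 204 in ES-2 (19.1%, 14.3 to 25.1, against 16.4%) and 401 of 1320 in ES indirect (30.4%, 27.96 to 32.9, against 19.5%). They were 29 of 90 in brain 1 (32.2%, 23.5 to 42.4, against 14.4%) and 36 of 98 in brain 2 (36.7%, 27.9 to 46.6, against 14.1%). The library value lay below the interval in ES-1, ES indirect and both brain libraries, and within it in ES-2. It counts read pairs with both ends ribosomal or unannotated but none within 1 protein-coding gene, which lowers it. It is therefore no value for pairs between 2 RNAs, and an excess of protein-coding partners was not tested. Introns made up 58 of the 89 in ES-1, 28 of the 39 in ES-2, 314 of the 401 in ES indirect, 9 of the 29 in brain 1 and 16 of the 36 in brain 2. Most of these genes were met once: 73 of 80 in ES-1, 39 of 39 in ES-2 and 326 of 355 in ES indirect. Small nuclear RNAs, the RNA parts of the splicing machinery, were 13 of 771 in ES-1 (1.69%, 0.988 to 2.86, against 1.24%), 0 of 204 in ES-2 and 69 of 1320 in ES indirect (5.23%, 4.15 to 6.56, against 1.10%). The snRNA share of Malat1 in ES indirect lay above that of its library, which was outside the interval but has the same limit. Neat1 had 1 snRNA among 88 partners there.

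Each pair of RNAs was then tested with a one-sided Fisher's exact test within a library, on between-RNA read pairs (2 annotated, non-ribosomal RNAs more than 2000 bp apart), and a pair was called where the Benjamini-Hochberg adjusted p was below 0.05 with at least 3 distinct read pairs. The test was run on all observed pairs of a library and describes that library without replicate error. Over all RNAs the share of tested pairs that were called was 2.54% in ES indirect, 1.09% in ES-1, 0.719% in ES-2, 0.895% for both ES assays pooled, 0.842% in MEF, 1.96% in brain 1 and 2.32% in brain 2. For Malat1, 1 of 191 partners was called in ES-1, 0 of 85 in ES-2 (40 with an unadjusted p under 0.05, of which 1 had 3 read pairs), 1 of 263 in both together, 6 of 442 in ES indirect (1.36%), 0 of 7 in MEF, 0 of 33 in brain 1 and 0 of 38 in brain 2 (3, 26 and 29 with an unadjusted p under 0.05, none with 3 read pairs). In MEF and brain these 0 calls were fixed in advance by the minimum of 3 read pairs, and in ES-2 only 1 partner could be called. The share of called partners was under the background in ES-1, the pooled ES assays and ES indirect. In ES-1 and the pooled assays it rests on 1 call. Only 25 of 191 partners in ES-1 and 21 of 442 in ES indirect had 3 read pairs, so a lower share is not read as a trait of Malat1. For Neat1 0 partners were called of 19 in ES-1, 17 in ES-2 and 35 in ES indirect, and 8, 9 and 27 had an unadjusted p under 0.05. No Neat1 partner had 3 read pairs, so these 0 calls were fixed in advance too.

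In ES indirect the partner of Malat1 with most between-RNA read pairs was U1, the small nuclear RNA that recognises 5′ splice sites. There 55 distinct read pairs joined them, where the margins of the Fisher table predict 22.9, 2.40 times as many (adjusted p = 3.89e-07 by Fisher's exact test with Benjamini-Hochberg adjustment). The 55 rest on 45 distinct Malat1 fragments, and their U1 fragments were placed at 20 loci of the genome. On the 2 flow cells the counts were 28 against 9.995 predicted and 27 against 13.1, with adjusted p = 7.81e-05 and 0.00371 by the same Fisher test. With ends of each side joined at random, 10.7 would be predicted. When p-values were adjusted over all possible pairs of names and not only over observed pairs, U1 was the 1 partner of Malat1 still called (adjusted p = 0.000496, Fisher's exact test).

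ES-1 differed from this. It had 3 read pairs of Malat1 with U1, where the Fisher margins predict 9.50 and ends joined at random by side 4.66. With a fragment and partner name counted once, 2 were left, against 6.46 by the Fisher margins. ES-2 had 0, but Malat1 had only 88 between-RNA read pairs there, against 612 in ES indirect. No prediction is given for ES-2, so its 0 shows no absence. U1 itself had 7340 such read pairs out of 239435 in ES-1, and 7341 out of 196187 in ES indirect. Whether crosslinking, fragmentation or fragment length accounts for the difference cannot be told apart with 1 library of ES indirect. U2, which binds the branch point in splicing, was joined to Malat1 by 9 read pairs in ES-1 (5.59 predicted by the Fisher margins, adjusted p = 0.223 by Fisher's exact test) and 9 in ES indirect (8.74 predicted, adjusted p = 0.554). Neither was called, and U6 was joined by 2 in ES indirect. For U1 in ES-1, ends joined at random by side predicted fewer than the margins (4.66 against 9.50). That prediction was not made for U2, so its counts are not read as being at the level of random joining.

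Malat1 was the fifth of the 3436 U1 partners of ES indirect by read pairs, and 118 of these (3.43%) were called. The Malat1 ends joined to U1 ran from nt 77 to nt 6476 and fell in 21 of the 28 bins, so they did not come from 1 site. On U1 they were less spread, as far as the reads reach. Of the 55 U1 fragments, 52 could be set on the U1 gene ENSMUSG00000065773 (chr3:96263947-96264112, minus strand, 166 nt) with at most 15% mismatches, and 3 of them began at nt 7, the most 5′ start. Where U1 was RNA2, its ligated 5′ end lay in nt 56 to 110 in 34 of 37 (91.9%, 78.7 to 97.2), as it did in 68.9% of the 4530 U1 fragments joined to other RNAs (67.6 to 70.2). In some of the 37, both fragments were at the length limit of the reads, with 100 nt of U1 beginning at nt 65. There the ligated end of U1 was not read and may lie further 5′. Such read pairs were left out of the Malat1 and Neat1 windows above, but they stay in the U1 counts, also in those for other RNAs. Where U1 was RNA1, its ligated 3′ end lay in the last part, beyond nt 110, in 12 of 15 (54.8 to 93.0%), against 64.4% of 2679. The window of U1 with most of its 5′ ends held 23 of the 37, 8 of them at nt 70, marked by the capital. Some of the 37 are 1 Malat1 fragment joined to 1 place of U1 and placed at several copies of the U1 gene. With these counted once, 26 of 28 ends lay in nt 56 to 110 (92.9%, 77.4 to 98.0), against 69.1% of 3823 counted alike, and the window held 18 of the 28, 7 of them at nt 70.
U1, nt 53 to 82, chr3:96264031-96264060, minus strand: cgaggctcacccattgcActttggggtgtg

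**Figure D5:**
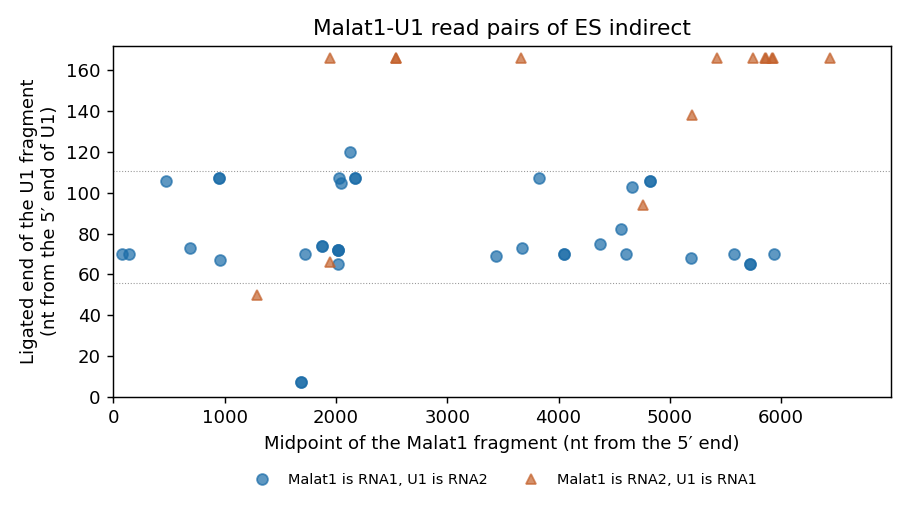
Malat1-U1 read pairs of ES indirect, by the midpoint of the Malat1 fragment (x axis, nt from the 5′ end of Malat1) and the ligated end of the U1 fragment (y axis, nt from the 5′ end of U1), with circles where U1 is RNA2, triangles where U1 is RNA1 and dotted lines dividing U1 in 3 parts; each point is 1 of the 52 read pairs whose U1 fragment could be set on the gene, and darker points lie on each other. Malat1 positions run along most of the RNA, while 34 of 37 U1 fragments that are RNA2 begin in the middle part, some of them at the length limit of the reads.

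The remaining calls rest on few read pairs. In ES-1 the simple repeat (T)n was joined to Malat1 by 3 read pairs (0.0738 predicted, adjusted p = 0.00399 by Fisher's exact test). They count as 1 when the same Malat1 fragment is counted once for a partner name, and the call was then lost. In ES indirect the SINE family B1_Mus2 was joined by 8 (3.44 predicted, adjusted p = 0.0450 by Fisher's exact test), and by 3 each the genes Pknox1, which encodes a homeodomain transcription factor, Trpc2, which encodes an ion channel, Tmco7 and the phenylalanine tRNA family tRNA-Phe-TTY. With a fragment and partner name counted once B1_Mus2 fell to 7 read pairs and was not called (adjusted p = 0.0807, Fisher's exact test), while the 4 others of ES indirect stayed called. None of these 6 stayed called when p-values were adjusted over all possible pairs of names. Repeat and tRNA names stand for many loci.

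ES-1 and ES-2 shared 13 named partners of Malat1 (6.81% of the 191 in ES-1 and 15.3% of the 85 in ES-2), and none was called in both. Over all tested pairs of RNAs, 16580 occurred in both assays, 12.2% of the 135653 in ES-1 and 15.2% of the 108739 in ES-2. The Malat1 share was thus near that of all pairs as a part of ES-2 and under it as a part of ES-1. The shared partners include 9 snoRNAs, the L1 family L1Md_F3, Ube2e3, Gm16723 and MTC-int. The snoRNA Snora81 had the most between-RNA read pairs with Malat1 in ES-1, 12, where the Fisher margins predict 20.2. Ends joined at random by side predict fewer than these margins, as for U1 in ES-1 (4.66 against 9.50). The 12 are therefore not read as a shortage. ES-2 had 4604 between-RNA read pairs with that name and none of them joined it to Malat1, while the family name SNORA81, listed apart, had 4 with Malat1 in ES-1 and 2 in ES-2. For Neat1 the 2 assays shared 1 partner.

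The study chose 4 partners of Malat1 on these samples, so their counts here are no independent evidence. It also tested them by separate experiments outside these libraries. It reported all 4 enriched when Malat1 was purified with antisense probes, compared with a purification of Actb. Malat1 was reported enriched in the reverse purification of Tfrc, and Malat1 and Slc2a3 RNAs were seen together by single-molecule imaging. In ES-1 they were Tfrc, the transferrin receptor, with 2 distinct read pairs, 0610007P14Rik with 2, Slc2a3, a glucose transporter, with 1 and Eif4a2, a translation initiation factor, with 1. All had 0 in the other 5 libraries. None was called, since none reached 3 read pairs. On their 2 read pairs Tfrc and 0610007P14Rik had adjusted p = 0.00964 and 0.00752 by Fisher's exact test. None of the 4 was met by Neat1 in any library.

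Genes for the proteins of the 2 bodies were met by single read pairs, if at all. Malat1 had 355 distinct protein-coding partners in ES indirect and 80 in ES-1, and the counts for these lists were not compared with other genes. Of 15 paraspeckle protein genes 1 was joined to Malat1, Pspc1, by 1 read pair of ES indirect. Of 22 nuclear speckle protein genes Sf3b1, a splicing factor, was met once in ES-1 and Srrm1, a splicing coactivator, once in ES indirect. None of these 37 genes was joined to Neat1. Of 22 nuclear noncoding RNAs Malat1 was joined to U1, U2 and the imprinted Rian in ES-1, to U1, U2, U4, U5 and U6 in ES indirect and to U12 and Rian in brain 1, and Neat1 only to U6, by 1 read pair of ES indirect. None of 8 genes near the locus was joined to either RNA.

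Malat1 was more often RNA2 than RNA1 in read pairs that leave it, and so was Neat1 in the 3 ES libraries. Malat1 was RNA2 in 484 of 771 in ES-1 (62.8%), 128 of 204 in ES-2 (62.7%), 776 of 1320 in ES indirect (58.8%), 58 of 90 in brain 1 (64.4%) and 59 of 98 in brain 2 (60.2%), so the 2 ES assays were alike. Neat1 was RNA2 in 29 of 49 in ES-1, 20 of 34 in ES-2 and 66 of 88 in ES indirect, while MEF and the brain libraries had at most 2 such pairs each.

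Among 124 long noncoding genes with at least 50 ends in 1 library, those with levels most like Malat1 over 5 points (4 libraries and the brain mean, log2 of ends per 1000000 ends in genes, plus 1) were the imprinted Mirg (Pearson r = 0.95), 4933407K13Rik (0.93) and Pisd-ps2 (0.90). For Neat1 they were Pisd-ps1 (0.99), D230017M19Rik (0.97) and 4933407K13Rik (0.96). With 5 points from libraries of unlike depth these values are a description and carry no test.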

How the data were processed

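The deposited files hold no measured value but 1 line for each read pair, with place, strand, sequence and RNA name of both fragments. Per the submitters' processing notes, TopHat2 2.1.1 and builds mm9 and NCBIM37 were used. Lines with equal coordinates of both fragments were collapsed. ES and MEF ends kept their deposited names. Only 27.5% of RNA1 fragments of brain 1 and 26.7% of brain 2 matched NCBIM37 at their stated coordinates, so brain fragments were placed on NCBIM37 by sequence with minimap2 2.31 (mapping quality of at least 10) and named from GENCODE vM1, while their Malat1 and Neat1 ends were taken at the stated position, where 94.7% and 88.9% matched the genome in brain 1 with at most 15% mismatches. The strand of RNA2 is the reverse of the one written.

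Intervals are 95% Wilson intervals. They, and limits for a count of 0 (3 counts), cover counting error only. Fisher's exact tests used scipy 1.17.1 and were tested on simulated data. P-values were adjusted over observed pairs, a choice that favours pairs of rare RNAs. Partners were named if called, if among the 4 the study chose, or if in fixed lists. Members and lists were chosen with earlier results of these data known.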

Additional observations from a re-analysis of the deposited data

How the results depend on the processing

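Leaving out 1 of the ES assays gave ranges of 0.0468 to 0.108% for the Malat1 share, 0.00663 to 0.00902% for Neat1, 1.92 to 9.08% and 2.86 to 5.77% for their within-RNA shares, 48.5 to 52.9% for ribosomal partners, 0 to 1 called partners of Malat1 and 0 to 0 of Neat1, a leading Malat1 bin at nt 1251 to 1251, a leading Neat1 bin at nt 1 to 1501, and 0 to 0 Malat1-Neat1 read pairs. No paired analysis was possible because ES and brain share only replicate numbers and no fit across samples was made.

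With every line counted, the ES mean of the within-Malat1 share was 13.8%, and called partners numbered 18 in ES and 44 in ES indirect for Malat1 and 2 in ES for Neat1. Over all distinct read pairs the ES means were 0.0267% for Malat1 and 0.00253% for Neat1, and the Malat1 intervals of ES indirect and brain overlapped. Leaving out short or linker fragments gave 0.00994% for Neat1 and 58.0% ribosomal partners. Requiring sequence matches gave 59.7% ribosomal partners. The leading Neat1 bin began at nt 1, the first of 3 tied bins, and at nt 1501 with sequence matches and with bins of 500 nt. A minimum of 2 read pairs gave 6 called Malat1 partners in ES and 19 in ES indirect, and a minimum of 5 gave 0 and 2. Added after seeing the data were counting a fragment and partner name once (0 in ES) and adjusting over all possible pairs (0 in ES and 1 in ES indirect), as well as single flow cells and each alternative of the Malat1-U1 pair. The cause was not tested. The Malat1-U1 call of ES indirect held under all 8 alternatives run, with 2.07 to 2.80 times the prediction. A longer Neat1 span was not run, since the span used is already the longest on this build.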
